A study of Mus musculus with 49 samples.

Results

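The transcriptome of leukaemia that began in short-term haematopoietic stem cells (ST-HSC) was compared with that of leukaemia that began in common myeloid progenitors (CMP), to ask how the cell in which a leukaemia started is reflected in the expression of the resulting disease. The genes compared were those with a mean of at least 1 FPKM, a count of fragments scaled for transcript length and library size, over the 7 samples of these leukaemias, and 11982 of the 38253 gene IDs in the deposited table passed. The 3 samples named STHSC:MA9 and the 4 samples named CMP:MA9 were bulk GFP+ leukaemia cells from wild-type C57BL/6J mice, with an age of 6 to 12 weeks in the labels. In both groups, and in the leukaemias of multipotent progenitor (MPP:MA9, 6 samples) and granulocyte-macrophage progenitor (GMP:MA9, 6 samples) origin, sorted marrow cells had been transduced with a retrovirus carrying the MLL-AF9 (MA9) fusion and a GFP reporter, and then transplanted into sublethally irradiated recipients. The normal cells were sorted from wild-type mice of the same strain and age range and carried no fusion, with 5 samples of ST-HSC (CD34+ CD150+ within the Lin- c-Kit+ Sca-1+ cells) and 5 of CMP (CD34+ CD150- with low FcγR, within the Lin- c-Kit+ Sca-1- cells). The labels give the tissue of the leukaemias as bone marrow, whereas the methods state that the cells were sorted from the spleen. Each sample came from an individual mouse according to the study, and the retroviral insertion sites, which differ between transduced cells, were not analysed here.

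MLL is a histone methyltransferase, and its fusion to AF9 produces a protein that recruits the transcription elongation machinery to MLL target genes, among them the HOXA cluster and Meis1. ST-HSC can still give rise to all blood lineages for a limited period, whereas CMP are restricted to the myeloid lineages. Either cell can be transformed by MA9 into an acute myeloid leukaemia whose bulk resembles immature granulocytes and monocytes.

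The leukaemias of both origins had that bulk myeloid pattern. Lyz2, the lysozyme of granulocytes and monocytes, was at 11425, 4368 and 6826 FPKM in STHSC:MA9 and 11208, 11892, 5587 and 5159 FPKM in CMP:MA9, and Itgam, the integrin chain CD11b, was at 4.69 to 101 FPKM in normal ST-HSC but between 183 and 285 FPKM in the 7 leukaemias. Kit, a receptor used to sort the normal cells, was low in both leukaemias, at 0.58, 2.97 and 1.19 FPKM in STHSC:MA9 and 0.37, 0.38, 0.6 and 2.06 FPKM in CMP:MA9. In the normal cells Kit was at 75.5 to 125 FPKM in ST-HSC and 92.7 to 113 FPKM in CMP. Ly6a, which encodes Sca-1, was at 47.1 to 67.6 FPKM in normal ST-HSC and 3.33 to 8.46 FPKM in normal CMP, in the direction of the sort. Because bulk samples were measured, fewer cells of a type and less RNA per cell cannot be told apart.

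The libraries of the compared groups differed in measures of their own. Depth relative to the median sample was 0.550, 0.577 and 0.831 in STHSC:MA9 and between 0.855 and 1.03 in CMP:MA9, while 16053 to 16345 and 16202 to 16470 genes were above 0. Expression deviated with the GC content of the gene, with a slope (log2 per 10 points of GC percentage) of -0.200 to -0.131 in STHSC:MA9 and of -0.005 to 0.111 in CMP:MA9, without overlap. The ratio of the small to the large mitochondrial ribosomal RNA (mt-Rnr1 over mt-Rnr2) was 0.791 to 0.902 in STHSC:MA9 and 0.344 to 0.400 in CMP:MA9, and the normal cells split in the same way, at 0.824 to 1.11 in ST-HSC and 0.397 to 0.538 in CMP. The labels give no library batch, so a batch that follows the origin and the origin itself cannot be told apart.

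Few genes passed the test between these leukaemias. With limma on log2(FPKM + 1), 45 of 11982 genes (0.376%) had a Benjamini-Hochberg adjusted p below 0.05 and a change of more than 2-fold, with 21 (0.175%) higher and 24 (0.200%) lower in STHSC:MA9. Median-ratio scaling of the samples moved the split to 25 higher and 16 lower. The median log2 change over all genes tested was -0.03, and 1889 genes (15.8%) had an unadjusted p below 0.05. All STHSC:MA9 samples lay above all CMP:MA9 samples for 655 genes (5.47%) and below them for 1073 (8.96%), 14.4% in all. All 45 called genes were among these. For a single gene, an exact two-sided rank test over the 35 splits of 3 and 4 samples cannot go below p = 0.0571.

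**Figure D1:**
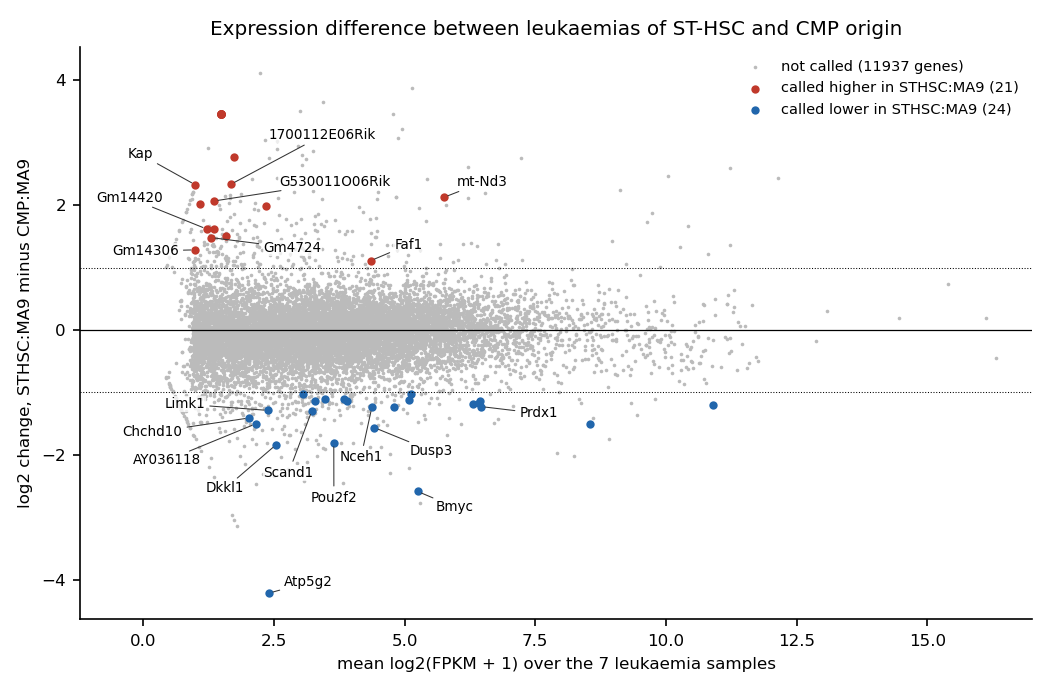
Log2 change between STHSC:MA9 and CMP:MA9 (vertical axis, log2 of FPKM + 1) against mean expression over the 7 leukaemia samples (horizontal axis, same scale) for all 11982 genes; the 21 genes called higher are red, the 24 called lower blue, and dotted lines mark 2-fold. Most genes lie between the dotted lines, the called rises sit mainly at low expression, and Atp5g2 has the most negative change at -4.21.

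The count of 45 moved with single libraries. It was 202 without STHSC:MA9 replicate 1 and 117 without CMP:MA9 replicate 3, but 18 and 20 without STHSC:MA9 replicates 2 and 3 and 21 without CMP:MA9 replicate 1 or 2. Of the called genes, 15 (12 higher, 3 lower) were called in all 7 fits that left out 1 sample. Over these samples the 45 IDs carried 38 distinct profiles, and 14 of them, 13 higher and 1 lower, had no symbol in the annotation. A set of 8 such IDs, of which ENSMUSG00000093815 is one, held equal values in these 7 samples, at 3.4, 19 and 14 FPKM in STHSC:MA9, and was listed at 0 in all CMP:MA9 samples. All 8 are among the 12 rises called in every fit without 1 sample, so these 12 hold fewer distinct profiles. The estimate of spread for these IDs was shared with MPP:MA9 and GMP:MA9, where every sample was at 0. ENSMUSG00000093815 was at 0 in MPP:MA9 and GMP:MA9 too, but at 6.51 to 19.4 FPKM in normal megakaryocyte-erythrocyte progenitors. In normal ST-HSC it was at 10.4 and 15.1 FPKM in replicates 3 and 5 and at 0 in the others. In normal CMP it was at 1.11 FPKM in replicate 1 and at 0 in the others. In normal long-term HSC (LT-HSC) it was at 13.7 and 10 FPKM in replicates 2 and 5, and in normal MPP at 2.5 FPKM in replicate 6. All other samples of LT-HSC and MPP were at 0. Of the 31 called genes with an annotated sequence, 11 shared at least 10% of their 31-base windows with another gene, so that reads could be divided among copies.

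The genes with a symbol that were higher in STHSC:MA9 were 8, and 2 of them had little shared sequence and were low or listed at 0 in CMP:MA9. Kap (ENSMUSG00000032758, chromosome 6, 133799873 to 133803685 in the NCBIM37 assembly), the kidney androgen-regulated protein gene, was at 3.29, 5.56 and 3.46 FPKM in STHSC:MA9 and was listed at 0 in all 4 CMP:MA9 samples. It was also listed at 0 in all 6 samples of both MPP:MA9 and GMP:MA9. Among normal cells it was at 7.84, 5.35, 4.2, 3.4 and 10.4 FPKM in ST-HSC and listed at 0 in all 5 CMP samples. Over the whole series it was above 0 in all 17 samples of LT-HSC, ST-HSC, MEP (megakaryocyte-erythrocyte progenitors) and STHSC:MA9 and in 0 of the other 32. The mt-Rnr1 ratio was 0.791 to 1.23 in these 4 groups and 0.783 to 1.03 in normal MPP, which had Kap at 0. Whether the libraries play a part in the pattern of Kap was not tested. On the log2(FPKM + 1) scale the difference between the leukaemias was 2.32, SE 0.20, adjusted p = 4.69e-06 by limma, a value that depends on the pseudocount because CMP:MA9 was at 0. The estimate of spread was shared with MPP:MA9 and GMP:MA9, where every sample was at 0. In a fit of STHSC:MA9 and CMP:MA9 alone the adjusted p was 0.0303 (limma).

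1700112E06Rik (ENSMUSG00000063458, chromosome 14, 22838934 to 23875307), a gene of unknown role, was at 5.3, 8.37 and 7.83 FPKM in STHSC:MA9 and 0.53, 0.15, 0.3 and 1.85 FPKM in CMP:MA9. The groups did not overlap, and the CMP:MA9 samples were the ones that departed from the normal cells. It was at 6.9, 8.65, 11.8, 7.97 and 6.6 FPKM in ST-HSC and 9.43, 8.96, 8.81, 8.73 and 3.54 FPKM in CMP. GMP:MA9, at 0.18 to 0.55 FPKM, was low like CMP:MA9, whereas MPP:MA9 was at 5.67 to 12.4 FPKM. The log2 change between the leukaemias was 2.33, SE 0.28, adjusted p = 0.000119, by limma.

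mt-Nd3 (ENSMUSG00000064360, chromosome M, 9459 to 9806) encodes a subunit of respiratory complex I and lies in the mitochondrial genome. It was at 114, 126 and 132 FPKM in STHSC:MA9 and 29.6, 24.5, 22.3 and 36.1 FPKM in CMP:MA9, 4.41-fold higher in the mean (log2 change 2.12, SE 0.19, adjusted p = 4.69e-06, limma). The lowest STHSC:MA9 sample was far above the highest CMP:MA9 sample, and the values of 142 to 178 FPKM in ST-HSC and 121 to 161 FPKM in CMP overlapped. The other 12 protein-coding mitochondrial genes had a median log2 change of -0.40, from -0.68 to 0.30, with 2 positive and 0 called. The summed share of mitochondrial genes was 16.3% to 19.8% of all FPKM in STHSC:MA9 and 12.8% to 22.9% in CMP:MA9, which overlapped. mt-Rnr1 had a log2 change of 0.74 (limma adjusted p = 0.346) and mt-Rnr2 of -0.45.

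Faf1 (ENSMUSG00000010517, chromosome 4, 109349193 to 109636565), a ubiquitin-binding factor first found as a partner of the death receptor Fas, was at 19.5, 40.1 and 36.4 FPKM in STHSC:MA9 and 11.9, 13.1, 13.9 and 16.1 FPKM in CMP:MA9. The nearest samples of the groups, at 19.5 and 16.1 FPKM, were close to each other. It was 2.33-fold higher in the mean (log2 change 1.11, SE 0.24, adjusted p = 0.0387, limma), and the adjusted p was up to 0.219 with 1 library left out.

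The other called rises with a symbol lay in genes with many near copies, whose values are uncertain. Gm14420, Gm4724 and Gm14306, predicted genes on chromosome 2 that share 67.2%, 100% and 93.7% of their sequence, were called higher together. Gm14420 (ENSMUSG00000078866, chromosome 2, 177249438 to 177262834) was at 3.61, 4.12 and 2.62 FPKM in STHSC:MA9 and 0, 0, 0.55 and 1.75 FPKM in CMP:MA9 (log2 change 1.62, SE 0.29, adjusted p = 0.0124, limma). Gm4724 (ENSMUSG00000078897, chromosome 2, 175247801 to 175261308) was at 2.7, 5.48 and 2.58 FPKM in STHSC:MA9 and 0, 0, 2.1 and 1.02 FPKM in CMP:MA9 (log2 change 1.48, SE 0.33, adjusted p = 0.0469, limma). Gm14306 (ENSMUSG00000078879, chromosome 2, 176455231 to 176503794) was at 2.49, 2.56 and 1.89 FPKM in STHSC:MA9 and 0, 0, 0.58 and 1.14 FPKM in CMP:MA9 (log2 change 1.28, SE 0.25, adjusted p = 0.022, limma). In all 3 genes CMP:MA9 replicates 1 and 2 were listed at 0 and replicates 3 and 4 lay between these and STHSC:MA9. GMP:MA9 was low too, at 0 to 0.34 FPKM for Gm14420, 0 for Gm4724 and 0 to 0.11 for Gm14306. In the same order MPP:MA9 was at 2.83 to 5.57, 2.79 to 5.89 and 2.01 to 3.4 FPKM. Normal ST-HSC were at 3.51 to 9.17, 1.36 to 9.54 and 0.89 to 4.93 FPKM, and normal CMP at 3.98 to 7.26, 3.32 to 8.08 and 2.61 to 5.09 FPKM. The stretch from the first of these genes to the last, 175247801 to 177262834, a span chosen after the values were seen, held 47 annotated genes, of which 8 passed the filter. All 8 had a positive log2 change, with a median of 1.13, and all 8 shared at least 10% of their sequence. G530011O06Rik (ENSMUSG00000072844, chromosome X, 166412975 to 166416849), a long non-coding RNA gene with 46% shared sequence, was at 6.86, 3.53 and 4.45 FPKM in STHSC:MA9 and 0.53, 0.35, 0.57 and 0.13 FPKM in CMP:MA9 (log2 change 2.07, SE 0.41, adjusted p = 0.0245, limma). It was at 0.13 to 0.76 FPKM in GMP:MA9, 1.34 to 10.2 in MPP:MA9, 1.73 to 17.7 in ST-HSC and 3.5 to 9.05 in CMP.

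**Figure D2:**
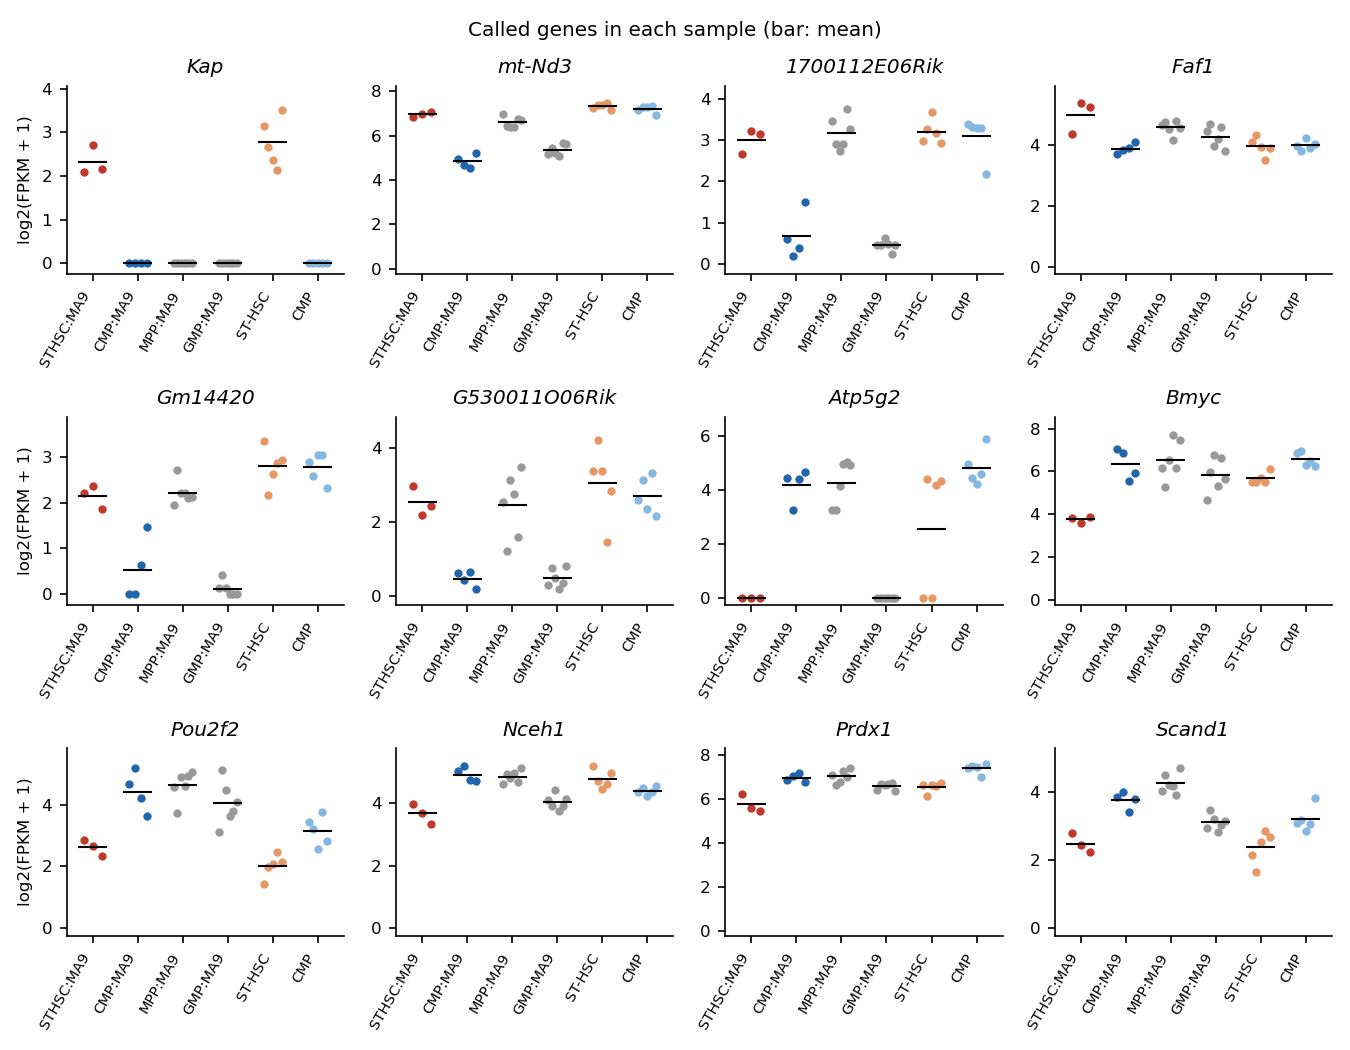
Expression of 12 called genes in every sample (vertical axes, log2 of FPKM + 1) of the 4 leukaemia groups and of normal ST-HSC and CMP; points are samples and bars group means. Kap is above 0 in STHSC:MA9 and ST-HSC and at 0 in the other groups drawn, and Atp5g2 is at 0 in STHSC:MA9 and GMP:MA9.

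Of the 24 genes lower in STHSC:MA9, 22 were protein-coding, and they are described here in the order of what each is known to do, an order chosen after the calls were seen. Atp5g2 (ENSMUSG00000062683, chromosome 15, 102493299 to 102501478) is 1 of the genes for subunit c of the ATP synthase and shares 64.6% of its sequence. It was listed at 0 in all 3 STHSC:MA9 samples and was at 21.1, 8.73, 20.2 and 24.7 FPKM in CMP:MA9 (log2 change on the log2(FPKM + 1) scale -4.21, SE 0.40, adjusted p = 5.38e-06, limma). In a fit of STHSC:MA9 and CMP:MA9 alone the adjusted p was 0.00559 (limma). Atp5g2 was listed at 0 in all 6 GMP:MA9 samples and in ST-HSC replicates 1 and 3 as well, while the other ST-HSC samples were at 20.1, 17.4 and 19 FPKM. It was above 0 in every MPP:MA9 sample (8.63 to 31.6 FPKM) and every normal CMP sample (17.7 to 58.3 FPKM). The other genes for the same subunit were not called, Atp5g1 at 101, 139 and 139 FPKM in STHSC:MA9 and 109, 117, 184 and 138 FPKM in CMP:MA9 (log2 change -0.10), and Atp5g3 with a log2 change of -0.09. Prdx1 (ENSMUSG00000028691, chromosome 4, 116358149 to 116373427), a peroxiredoxin that reduces hydrogen peroxide, was at 75.2, 47.2 and 42.4 FPKM in STHSC:MA9 and 118, 134, 145 and 109.5 FPKM in CMP:MA9. Every STHSC:MA9 sample was below every CMP:MA9 sample, 2.3-fold in the mean (log2 change -1.23, SE 0.20, adjusted p = 0.00457, limma). Prdx2, its cytosolic relative, overlapped between the groups, at 30.9, 55.2 and 64.2 FPKM in STHSC:MA9 and 34.2, 40.1, 53 and 27.4 FPKM in CMP:MA9.

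Nceh1 (ENSMUSG00000027698, chromosome 3, 27081887 to 27183530), a hydrolase of cholesterol esters, was at 14.7, 11.9 and 9.14 FPKM in STHSC:MA9 and 31.6, 35.2, 25.3 and 24.8 FPKM in CMP:MA9 (log2 change -1.24, SE 0.18, adjusted p = 0.00171, limma). GMP:MA9, at 12.35 to 20.5 FPKM, overlapped STHSC:MA9, and MPP:MA9 was at 23.4 to 33.4 FPKM. STHSC:MA9 and CMP:MA9 were well apart, and the adjusted p between them was at most 0.0263 in the 7 fits without 1 library. In a fit of STHSC:MA9 and CMP:MA9 alone it was 0.0537 (limma), and the call was lost. Chchd10 (ENSMUSG00000049422, chromosome 10, 75398318 to 75400470), a protein of the mitochondrial intermembrane space, was at 0.89, 1.82 and 1.39 FPKM in STHSC:MA9 and 4.22, 7.16, 5.37 and 4.43 FPKM in CMP:MA9 (log2 change -1.41, SE 0.29, adjusted p = 0.0319, limma). Its lowest CMP:MA9 sample was more than 2-fold above its highest STHSC:MA9 sample, but at these low levels the call was lost in 6 of the 7 fits without 1 library, with an adjusted p of up to 0.141. Gstp1, a glutathione transferase, and Pgls, an enzyme of the pentose phosphate pathway, were also called lower.

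Bmyc (ENSMUSG00000049086, chromosome 2, 25562399 to 25563237), a short relative of Myc without its DNA-binding part, showed the largest fall among called genes above 0 in all 7 samples. It was at 13.2, 11.2 and 13.7 FPKM in STHSC:MA9 and 132, 117, 46.6 and 59.2 FPKM in CMP:MA9, 6.98-fold lower in the mean (log2 change -2.58, SE 0.53, adjusted p = 0.0313, limma). The STHSC:MA9 samples were close together, whereas CMP:MA9 replicates 1 and 2 were more than 2-fold above replicate 3, and 55.2% of the sequence is shared. Myc itself was at 22, 87.5 and 71.8 FPKM in STHSC:MA9 and 44.1, 49, 82.1 and 42.7 FPKM in CMP:MA9, which overlapped (log2 change -0.01). Pou2f2 (ENSMUSG00000008496, chromosome 7, 25877472 to 25917507), the octamer-binding factor OCT2, was at 6.25, 5.34 and 4.01 FPKM in STHSC:MA9 and 24.1, 34.9, 17.5 and 11.5 FPKM in CMP:MA9 (log2 change -1.80, SE 0.40, adjusted p = 0.0469, limma). The other octamer factor, Pou2f1, was at 13.7, 12.2 and 8.76 FPKM in STHSC:MA9 and 16.7, 14.6, 11.7 and 16.6 FPKM in CMP:MA9. Scand1 (ENSMUSG00000046229, chromosome 2, 156137583 to 156138440), which encodes little more than a SCAN domain, was at 5.92, 4.43 and 3.72 FPKM in STHSC:MA9 and 13.5, 15.2, 9.82 and 13.1 FPKM in CMP:MA9 (log2 change -1.29, SE 0.20, adjusted p = 0.00357, limma). With 1 library left out the adjusted p was up to 0.141 for Bmyc and 0.223 for Pou2f2, and at most 0.0449 for Scand1. The correction for GC content and length took the log2 change of Scand1 to -0.69 (adjusted p = 0.251, limma).

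Dusp3 (ENSMUSG00000003518, chromosome 11, 101832457 to 101848327), a phosphatase of MAP kinases, was at 21.2, 7.37 and 7.28 FPKM in STHSC:MA9 and 36.2, 31.8, 26.2 and 40 FPKM in CMP:MA9 (log2 change -1.56, SE 0.29, adjusted p = 0.0139, limma). STHSC:MA9 replicate 1 stood well above the other STHSC:MA9 samples but below the lowest CMP:MA9 sample. Dusp3 was at 9.48 to 19.95 FPKM in GMP:MA9 and 29.1 to 46.9 FPKM in MPP:MA9. Limk1 (ENSMUSG00000029674, chromosome 5, 135131909 to 135164460), the kinase that phosphorylates the actin-severing protein cofilin, was at 2.22, 1.62 and 2.7 FPKM in STHSC:MA9 and 6.69, 9.21, 4.03 and 7.82 FPKM in CMP:MA9 (log2 change -1.29, SE 0.26, adjusted p = 0.0293, limma). Dkkl1 (ENSMUSG00000030792, chromosome 7, 52462895 to 52467253), a secreted relative of the Dickkopf proteins, was at 1.49, 2.62 and 1.47 FPKM in STHSC:MA9 and 8.15, 8.7, 10.4 and 9.08 FPKM in CMP:MA9, with both groups tight (log2 change -1.84, SE 0.38, adjusted p = 0.0304, limma). The adjusted p of these 3 genes was up to 0.135, 0.159 and 0.166 with 1 library left out. The receptor Il17ra, the endocytic adaptors Epn1 and Hip1 and the translation repressor Eif4ebp2 were called lower as well.

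Also among the 12 most negative changes of called genes with a symbol was AY036118 (ENSMUSG00000045999, chromosome 17, 39985048 to 39985772), annotated as a pseudogene, at 1.3, 1.21 and 1.92 FPKM in STHSC:MA9 and 6.2, 9.07, 3.96 and 5.51 FPKM in CMP:MA9 (log2 change -1.50, SE 0.25, adjusted p = 0.00498, limma). The unnamed ENSMUSG00000097971, picked after its values were seen, was at 167, 222 and 232 FPKM in STHSC:MA9 and 480, 661, 645 and 572 FPKM in CMP:MA9 (log2 change -1.51, limma adjusted p = 0.020). The other called falls with a symbol were Gm9846, Gm16517, Lrrc25, Fbrs and Zfp865. AY036118 and ENSMUSG00000097971 did not overlap between the groups, and the GC content of AY036118, 68.5%, was the highest of the 31 called genes with a sequence. Of the 20 called genes chosen by the naming rule, 6 kept their call in all 7 fits without 1 library, namely 1700112E06Rik, Kap, mt-Nd3, Atp5g2, Scand1 and Nceh1. Without STHSC:MA9 replicate 2 the other 14 lost it (adjusted p 0.0511 to 0.235), without STHSC:MA9 replicate 3 or CMP:MA9 replicate 1 each time 12 (up to 0.223 and 0.139), without CMP:MA9 replicate 2 11 (up to 0.162) and without CMP:MA9 replicate 4 9 (up to 0.08). Without STHSC:MA9 replicate 1 the call of Chchd10 was lost (adjusted p = 0.0509), and without CMP:MA9 replicate 3 none was lost.

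The same genes were then followed in the normal cells, to ask which differences were already there between ST-HSC and CMP. No sample is shared between these comparisons. Normal ST-HSC and CMP differed in 321 of the 11982 genes (2.68%), with 129 (1.08%) higher and 192 (1.60%) lower in ST-HSC. The median log2 change of all genes was -0.13, and median-ratio scaling gave 185 higher and 72 lower, scaling without mitochondrial genes 162 and 90, and a correction for GC content and length 150 and 79. Of the 45 genes called between the leukaemias, 38 had a change of the same sign in the normal cells, 9 were called the same way and 0 the opposite way. These 9 are 20% of the leukaemia calls and 2.8% of the normal ones. They were Kap, which was higher, and Pgls, Epn1, Gstp1, Eif4ebp2, Chchd10, AY036118, Pou2f2 and ENSMUSG00000097971, which were lower. Only Kap of these kept its leukaemia call after the correction for GC content and length, and ENSMUSG00000097971 had no annotated sequence. Both comparisons varied with GC content in the same direction (Spearman correlation -0.323 and -0.326). The share of all genes with the same sign is not given here, and the cause of the shared direction was not tested.

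Kap had a normal log2 change of 2.77, SE 0.22, adjusted p = 8.33e-09 (limma). Pou2f2 was at 1.7, 2.97, 3.2, 4.47 and 3.47 FPKM in ST-HSC and 9.73, 8.27, 4.95, 12.6 and 6.1 FPKM in CMP (log2 change -1.14, SE 0.27, adjusted p = 0.00424, limma). These ranges did not overlap, and the lowest CMP:MA9 sample, at 11.5 FPKM, was below only the highest normal CMP sample. Chchd10 had a normal log2 change of -1.01, SE 0.30, adjusted p = 0.0179 and AY036118 of -1.59, SE 0.33, adjusted p = 0.00159 (limma). Prdx1 and Bmyc had adjusted p-values of 0.000301 and 0.0057 with normal log2 changes of -0.86 and -0.91 (limma), under the 2-fold limit.

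A separate contrast, the difference of changes, subtracted the step from CMP to CMP:MA9 from the step from ST-HSC to STHSC:MA9. It uses the same 7 leukaemia samples as the first comparison, so its values are not independent of it. It called 111 genes (0.926%), 50 with a more positive change from ST-HSC to STHSC:MA9 and 61 with a more negative one, and the median over all genes was 0.12. Median-ratio scaling gave 19 and 69, scaling without mitochondrial genes 11 and 39, and the correction for GC content and length 35 and 77. Of the 45 genes, 11 were called by it, namely 1700112E06Rik, mt-Nd3, Gm14420, Gm4724, Gm14306, Faf1 and ENSMUSG00000095362 with a more positive change in STHSC:MA9, and Hip1, Nceh1, Dusp3 and Dkkl1 with a more negative one. The total of 111 was 668 without STHSC:MA9 replicate 1, 349 without CMP:MA9 replicate 3 and 9 without STHSC:MA9 replicate 2. It was 17 without STHSC:MA9 replicate 3, 33 and 36 without CMP:MA9 replicates 1 and 2, 56 and 55 without ST-HSC replicates 1 and 2, and 41 and 48 without CMP replicates 3 and 5.

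For these 11 genes the normal ST-HSC and CMP samples overlapped. Nceh1 was at 35.6, 25, 21, 23.2 and 30 FPKM in ST-HSC and 19.3, 21.4, 17.7, 19.5 and 22.4 FPKM in CMP, so that all STHSC:MA9 samples lay below all of these and all CMP:MA9 samples above all of CMP. Its difference of changes was -1.62, SE 0.24, adjusted p = 0.000389 (limma). Dusp3 had a normal log2 change of -0.01 and a difference of changes of -1.55, SE 0.36, adjusted p = 0.0316 (limma). mt-Nd3 had a normal log2 change of 0.12 and a difference of changes of 2.00, SE 0.21, adjusted p = 1.86e-07 (limma), with CMP:MA9 and GMP:MA9 the groups far below the normal range. Faf1 had one of 1.14, SE 0.27, adjusted p = 0.0317 and Dkkl1 of -2.04, SE 0.53, adjusted p = 0.0444 (limma). For the other 25 of the 45 genes neither the normal comparison nor the difference of changes passed, which does not show that they behaved alike.

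**Figure D3:**
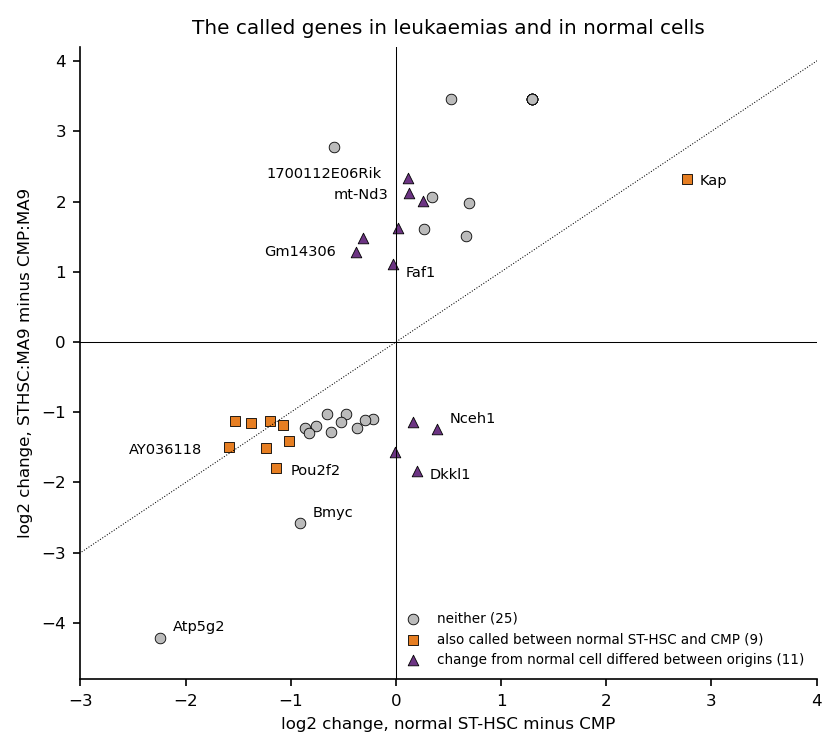
Log2 change of the 45 called genes between the leukaemias (vertical axis) and between normal ST-HSC and CMP (horizontal axis), both on log2(FPKM + 1), with equal changes on the dotted line. Orange squares are the 9 genes also called between the normal cells, purple triangles the 11 called for the difference of changes, and grey circles the other 25; the triangles lie between -0.38 and 0.39 on the horizontal axis.

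The log2 change varied with the GC content of the genes. Across 11516 genes with an annotated sequence, the Spearman correlation of the log2 change with exon GC content was -0.323, and the same correlation was -0.326 between normal ST-HSC and CMP and 0.0133 for the difference of changes. These are correlations across genes, which share libraries and are not independent replicates. The median log2 change was 0.126 for genes with 40% to 42.5% GC and -0.471 for genes with 62.5% to 65%. The called genes had a median GC content of 41.6% for the 8 rises with a sequence and 56.9% for the 23 falls, against 49.4% for all members. After a smooth trend on GC content and exon length had been removed from each sample, 6 of the 31 called genes with a sequence were still called, and no others. These were Kap, 1700112E06Rik and mt-Nd3, which were higher, and Atp5g2, Prdx1 and Nceh1, which were lower. Some lost calls kept most of their size: the log2 change was -1.54 for Dusp3 after the correction (limma adjusted p = 0.0516), 1.07 for Faf1 (0.115), -2.34 for Bmyc (0.133) and 1.90 for G530011O06Rik (0.106).

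**Figure D4:**
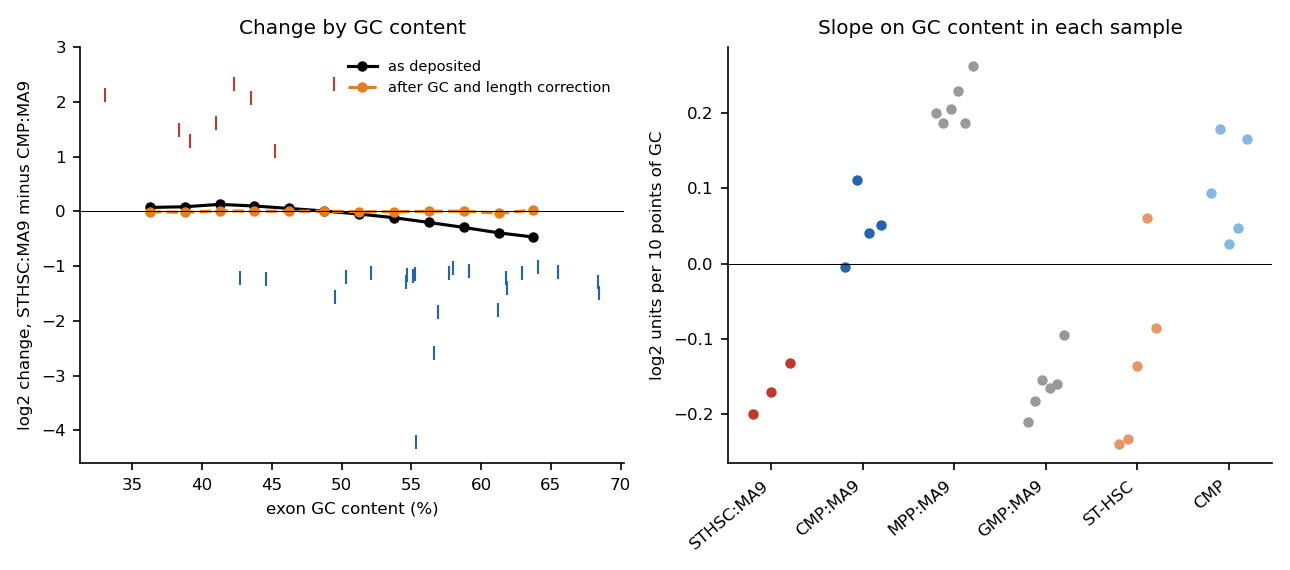
Left, median log2 change between STHSC:MA9 and CMP:MA9 (vertical axis) by exon GC content in percent (horizontal axis), as deposited in black and after correction for GC content and length in orange, with the called genes as red and blue ticks; right, slope of each sample on GC content in log2 units per 10 percentage points. The black line falls from 0.126 to -0.471 between the bins of 40% to 42.5% and 62.5% to 65% GC, and the 3 STHSC:MA9 slopes lie below all 4 CMP:MA9 slopes.

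For 4 of these 6 genes the RefSeq table held a promoter, and the 250 bases before the start are shown because the calls of these genes were kept when GC content was corrected for. Capitals mark the motifs searched on both strands, which were the letters TATAAA for a TATA box, the letters GGGCGG for a GC box, the letters CCAAT for the box of that name and the letters CACGTG, the same on both strands, for an E-box.
Kap (GRCm38.p6, chr6:133853668-133853917, reverse strand): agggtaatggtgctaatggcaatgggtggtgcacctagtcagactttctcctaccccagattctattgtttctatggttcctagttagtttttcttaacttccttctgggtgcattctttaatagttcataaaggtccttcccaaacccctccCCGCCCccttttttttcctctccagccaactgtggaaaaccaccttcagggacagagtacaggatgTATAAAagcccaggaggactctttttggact
Prdx1 (GRCm38.p6, chr4:116685349-116685598, forward strand): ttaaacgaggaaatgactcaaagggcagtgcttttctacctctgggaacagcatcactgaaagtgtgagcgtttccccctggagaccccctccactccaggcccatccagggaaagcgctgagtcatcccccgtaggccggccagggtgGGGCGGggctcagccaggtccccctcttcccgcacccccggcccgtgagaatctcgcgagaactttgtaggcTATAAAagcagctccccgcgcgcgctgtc
Nceh1 (GRCm38.p6, chr3:27182754-27183003, forward strand): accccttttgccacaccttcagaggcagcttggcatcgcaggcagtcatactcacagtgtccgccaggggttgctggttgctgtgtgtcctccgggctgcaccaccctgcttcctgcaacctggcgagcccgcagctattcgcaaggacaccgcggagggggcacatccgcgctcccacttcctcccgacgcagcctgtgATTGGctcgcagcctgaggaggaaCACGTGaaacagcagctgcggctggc
Atp5g2 (GRCm38.p6, chr15:102671048-102671297, reverse strand): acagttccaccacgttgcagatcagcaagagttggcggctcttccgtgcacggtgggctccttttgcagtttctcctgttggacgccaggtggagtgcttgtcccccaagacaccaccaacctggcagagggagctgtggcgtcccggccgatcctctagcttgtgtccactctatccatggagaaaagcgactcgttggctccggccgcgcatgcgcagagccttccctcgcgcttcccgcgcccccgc

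The window of Kap had a GC content of 45.6%, with a TATA box 31 bases before the start and a GC box on the opposite strand at 97 bases. Prdx1 had 61.6% GC and the same pair of motifs, a TATA box at 29 bases and a GC box at 101. Nceh1 had 64% GC, with a CCAAT box on the opposite strand at 50 bases and an E-box at 26, and Atp5g2 had 62.8% GC and none of the 4 motifs. Among 32841 promoter windows of this length in the table, 12.4% held a TATA box, 33.9% a CCAAT box, 32.7% a GC box and 6.02% an E-box on either strand. Among the 9893 windows of genes compared here the shares were 6.2%, 36%, 56.7% and 8.44%. No motifs overlapped in the windows shown, and a match describes letters only. 1700112E06Rik and mt-Nd3 are named only.

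Gene groups were described by their members, with no test of a group, and 0 members of any of the 21 lists were called. The member with the smallest p is given for 20 of these lists, and other members named here were picked after their values were seen. In the background, 0.376% of all genes were called, 15.8% had an unadjusted p below 0.05 and 14.4% did not overlap, with a median log2 change of -0.03.

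**Figure D5:**
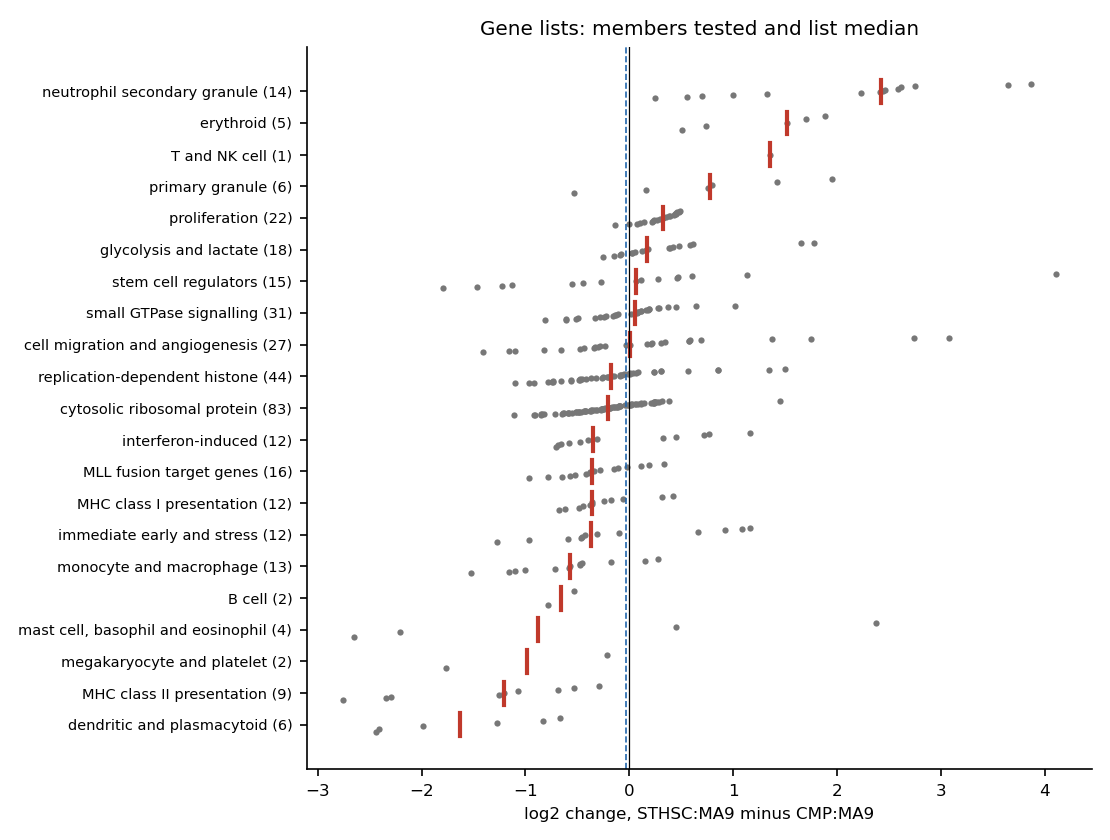
Log2 change between STHSC:MA9 and CMP:MA9 (horizontal axis, log2 of FPKM + 1) of each tested member of the 21 gene lists (grey points, number tested in brackets) with the list median (red bar) and the median of all 11982 genes (dashed line at -0.03). Secondary granule genes have the highest median at 2.43 and dendritic and plasmacytoid genes the lowest at -1.63, and 0 of the points passed the call.

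For the genes of neutrophil secondary granules and late granulocyte maturation, all 14 were tested and had a positive log2 change, with a median of 2.43, but 0 were called. Of these, 6 had an unadjusted p below 0.05 and 4 did not overlap. Ltf, which encodes lactoferrin, was at 123, 102 and 344 FPKM in STHSC:MA9 and 7.54, 22.5, 44.5 and 0.73 FPKM in CMP:MA9 (log2 change 3.87, SE 1.22, adjusted p = 0.134, limma). Ly6g, the neutrophil surface marker, was at 46.5, 17.6 and 108 FPKM in STHSC:MA9 and 0, 8.34, 10.2 and 0.69 FPKM in CMP:MA9 (limma adjusted p = 0.175), and Mmp9, the gelatinase of granules, at 154, 183 and 313 FPKM in STHSC:MA9 and 8.12, 56.5, 141 and 16.8 FPKM in CMP:MA9 (limma adjusted p = 0.242). Ltf, Ly6g and Mmp9 did not overlap between the groups. CMP:MA9 varied widely within itself, with a summed level of the list of 2674, 10723, 33852 and 4175 FPKM against 31634, 21165 and 48781 FPKM in STHSC:MA9, so that CMP:MA9 replicate 3 lay above 2 of the 3 STHSC:MA9 samples. The 6 primary granule genes, made earlier in maturation, had a median log2 change of 0.77, and 0 of them had an unadjusted p below 0.05. Their smallest p was that of Ctsc, the protease that activates granule proteases, with a change of the other sign (-0.53, limma adjusted p = 0.431).

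Most members of the dendritic and monocytic lists had a negative change, and 0 of them were called. Of 13 dendritic and plasmacytoid markers 6 were tested, all 6 with a negative change and a median of -1.63, 5 did not overlap and 5 had an unadjusted p below 0.05. Flt3, the receptor for the FLT3 ligand, was at 15, 3.51 and 1.15 FPKM in STHSC:MA9 and 40, 45.8, 20.2 and 16.9 FPKM in CMP:MA9 (log2 change -2.44, SE 0.77, adjusted p = 0.135, limma). Tcf4, a factor of plasmacytoid dendritic cells, was at 16.5, 9.03 and 8.67 FPKM in STHSC:MA9 and 71.6, 71, 32.3 and 27.6 FPKM in CMP:MA9 (limma adjusted p = 0.171). In both genes STHSC:MA9 replicate 1 was the highest of its group, and CMP:MA9 replicates 1 and 2 were above replicates 3 and 4. Of 13 monocyte and macrophage genes 11 had a negative change, with a median of -0.57, and 1 did not overlap. Their summed levels overlapped, at 5386 to 13907 FPKM in STHSC:MA9 and 6914 to 14675 FPKM in CMP:MA9. Klf4, a factor of monocyte differentiation, was at 27.2, 5.64 and 8.86 FPKM in STHSC:MA9 and 49.5, 44.3, 28.9 and 21.5 FPKM in CMP:MA9 (log2 change -1.52, SE 0.45, adjusted p = 0.117, limma), which overlapped through STHSC:MA9 replicate 1. Without that library Klf4 and Flt3 were called, with adjusted p-values of 0.0143 and 0.0421 (limma).

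MHC class II genes, which present antigen to helper T cells, are a list that the study itself described in these samples, so that its direction is not independent evidence. All 9 tested members had a negative log2 change, with a median of -1.21, 4 had an unadjusted p below 0.05 and 5 did not overlap. H2-DMb1, which helps load the peptide, had the smallest p and was at 34.9, 30.9 and 31.9 FPKM in STHSC:MA9 and 54.1, 67.1, 41.4 and 51.5 FPKM in CMP:MA9 (log2 change -0.68, SE 0.21, adjusted p = 0.119, limma). Cd74, the invariant chain, was at 9.44, 17.1 and 11 FPKM in STHSC:MA9 and 165, 272, 32.5 and 40.3 FPKM in CMP:MA9 (log2 change -2.76, SE 1.03, adjusted p = 0.207, limma). CMP:MA9 replicates 1 and 2, which also had the highest dendritic values, were several times above replicates 3 and 4 in Cd74. The summed level of the list was 127 to 155 FPKM in STHSC:MA9, 188 to 744 FPKM in CMP:MA9, 256 to 556 FPKM in ST-HSC and 245 to 634 FPKM in CMP. The 12 MHC class I genes tested had a median of -0.36, with 10 negative, their summed levels overlapped between the groups, and their smallest p was that of Pdia3, a chaperone of peptide loading, which had a positive change (0.42, limma adjusted p = 0.112).

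Markers of other blood cells were few. Of 10 B cell genes 2 were tested (median -0.66, smallest p for Cd79b, adjusted p = 0.372 by limma), and Pax5 and Ms4a1 were at most 0.06 FPKM in the 7 leukaemias. Of 11 T and NK cell genes only Nkg7 was tested (1.35, limma adjusted p = 0.427), and Cd3g, Lck and Gzma were listed at 0 in all 7. The erythroid list, of which 5 of 13 genes were tested, had a median of 1.52, and Hbb-b1, a beta globin, was at 122, 19.6 and 22.6 FPKM in STHSC:MA9 and 8.53, 10.2, 9.64 and 10.1 FPKM in CMP:MA9. STHSC:MA9 replicate 1 was the highest in globin, and in normal cells Hbb-b1 was at 48.8 to 24164 FPKM in ST-HSC and 73.5 to 643 FPKM in CMP. Summed erythroid markers were 42.1 to 228 FPKM in STHSC:MA9 and 19 to 26.5 FPKM in CMP:MA9, and the part of such cells in the other results was not tested. Of 7 megakaryocyte genes 2 were tested, and Itgb3, an integrin chain, was at 2.58, 4.71 and 4.71 FPKM in STHSC:MA9 and 23.1, 22.6, 8.21 and 13.5 FPKM in CMP:MA9 (log2 change -1.77, SE 0.58, adjusted p = 0.147, limma). Of 9 mast cell, basophil and eosinophil genes 4 were tested with a median of -0.88, and Hdc, the histamine-forming enzyme, was at 24.4, 13.7 and 39.6 FPKM in STHSC:MA9 and 0.47, 3.29, 26 and 2.01 FPKM in CMP:MA9 (limma adjusted p = 0.218), overlapping through CMP:MA9 replicate 3.

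Stem cell regulators were split in direction, while most targets of the fusion had negative changes. Among 15 stem cell genes tested the median log2 change was 0.07, with 8 positive and 7 negative. Fli1, an ETS factor of stem cells and megakaryocytes, had the smallest p, at 77.5, 86 and 88.6 FPKM in STHSC:MA9 and 55.3, 57.2, 74.5 and 55.8 FPKM in CMP:MA9 (log2 change 0.47, SE 0.13, adjusted p = 0.102, limma), without overlap. Mecom (Evi1), a zinc finger factor of stem cells, had the most positive change of the list, at 11.8, 32.2 and 31.9 FPKM in STHSC:MA9 and 0.03, 2.65, 0 and 0 FPKM in CMP:MA9 (log2 change 4.11, SE 1.28, adjusted p = 0.128, limma). It did not overlap between the groups but spread widely within them, and it was at 14.6 to 91.3 FPKM in ST-HSC and 2.28 to 11.9 FPKM in CMP. Cbfa2t3, a corepressor, was lower in each STHSC:MA9 sample, at 7.16, 10.3 and 8.06 FPKM in STHSC:MA9 and 27.6, 23.7, 15.8 and 18.9 FPKM in CMP:MA9 (limma adjusted p = 0.127). The study itself reported this direction for Cbfa2t3 in these samples, so it is not independent evidence. The study also described Evi1, as higher in MPP:MA9 than in CMP:MA9 or GMP:MA9. The 16 MLL fusion target genes had a median of -0.36, with 13 negative, and Runx2 had their smallest p (-0.65, limma adjusted p = 0.194). Hoxa9 was at 14.5, 32.4 and 20.4 FPKM in STHSC:MA9 and 25.2, 26.9, 23.6 and 38.8 FPKM in CMP:MA9 and Meis1 at 36.2, 81.5 and 62.2 FPKM in STHSC:MA9 and 35.6, 35.4, 50.9 and 62.9 FPKM in CMP:MA9, and both overlapped between the groups.

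The lists of growth and metabolism genes had medians between -0.20 and 0.32. Of 22 proliferation genes 21 had a positive change, but with a median of 0.32, and 1 of them had an unadjusted p below 0.05. That gene was Mki67, which marks cycling cells, at 151, 147 and 138 FPKM in STHSC:MA9 and 117, 87.5, 127 and 102 FPKM in CMP:MA9 (log2 change 0.43, SE 0.20, adjusted p = 0.3, limma). The 18 glycolysis and lactate genes had a median of 0.17, with 14 positive. Ldhb, the lactate dehydrogenase B chain, was at 32.9, 41.6 and 47 FPKM in STHSC:MA9 and 8.85, 7.72, 17.7 and 11.8 FPKM in CMP:MA9, 3.52-fold higher in the mean and without overlap (log2 change 1.78, SE 0.53, adjusted p = 0.118, limma). The 83 cytosolic ribosomal protein genes had a median of -0.20, with 59 negative and 17 lying lower without overlap. Their smallest p was that of Rpl39l, a rarely used paralogue of Rpl39, at 5.23, 0.36 and 1.43 FPKM in STHSC:MA9 and listed at 0 in all CMP:MA9 samples (limma adjusted p = 0.0578). The 44 histone genes had a median of -0.18, which was 0.08 after the GC and length correction, and Hist1h4h had the smallest p (-1.10, limma adjusted p = 0.123).

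Genes of migration, small GTPase signalling and stress completed the lists. The 27 migration and angiogenesis genes had a median of 0.00, with 14 positive and 13 negative. Spp1, the secreted adhesion protein osteopontin, was at 28.7, 177 and 186 FPKM in STHSC:MA9 and 4.92, 7.6, 44 and 7.48 FPKM in CMP:MA9 (log2 change 3.08, SE 0.81, adjusted p = 0.0828, limma). It overlapped through CMP:MA9 replicate 3, and it was called without that library (limma adjusted p = 0.0301) or without STHSC:MA9 replicate 1 (0.019). The 31 small GTPase genes had a median of 0.05, with 18 positive and 13 negative. Arhgef1, an exchange factor for RhoA, was the only member of any list with an adjusted p below 0.05, at 107, 71.9 and 72.2 FPKM in STHSC:MA9 and 156, 162, 114 and 155 FPKM in CMP:MA9, but its change was under 2-fold (log2 change -0.81, SE 0.18, adjusted p = 0.0469, limma). Its adjusted p was up to 0.241 with 1 library left out, and without STHSC:MA9 replicate 1 it passed both limits. The 12 interferon-induced genes had a median of -0.35, with 5 positive and 7 negative. The 12 immediate early and stress genes had a median of -0.37, with Atf3 at the smallest p (-0.97, limma adjusted p = 0.193).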

How the data were processed

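RNA of sorted cells had been amplified with the NuGen Ovation RNA-Seq V2 kit and sequenced on an Illumina HiSeq. The authors deposited FPKM values made with RSEM, with mm9 named in their processing notes; the aligner and annotation are not given in the sources used here. The authors also ran edgeR on counts (not analysed here). A sample label was found for 49 of the 68 columns; the remaining 19 played no part. Symbols and 1-based coordinates for 33068 of 38253 IDs came from GENCODE M1 on NCBIM37, and promoters from RefSeq (GRCm38.p6). The filter on the mean set the members, of which Gm12207 and Afap1l1 lay just inside at 1 FPKM and Cbx2 just outside at 0.997.

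Expression was tested on log2(FPKM + 1) in R 4.3.3 by limma 3.58.1 (trended eBayes, two-sided, Benjamini-Hochberg over 11982 genes), and a call needed both a log2 change beyond 1 in size and an adjusted p below 0.05. A fold change on this scale understates that of low genes. The 19 leukaemias, the 30 normal samples, and the 4 leukaemia with 4 normal groups were each fitted together. The functions were tested on simulated data. The members and gene lists were chosen with earlier results of these data known. The genes named with full values were, among called genes with a symbol and without overlap, up to 12 with the largest rise (8 were found) and 12 with the largest fall, and per list the called members or that with the smallest p; some of these are not reported here.

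Alternatives were a pseudocount of 0.1, no filter or one of 5 FPKM, median-ratio scaling, equal sums without mitochondrial genes, a fit of the compared groups alone, the replicate block, a correction for GC content and exon length (splines with 5 degrees of freedom), no fold limit, leaving out genes that share at least 10% of 31-base windows, and leaving out each sample; equal IDs counted once was chosen after the data were seen. Read totals were not used here, so no counting interval was given. Relative depth was estimated from the steps of low values over 6847 genes, and 73.9% of the 1176 sample pairs fell within 0.1 log2 units of it. The study states that its data were collected over biological replicate experiments, but the labels do not say which sample came from which. Samples of the same experiment may not be independent, so p-values measure the spread between these samples. Other steps used Python 3.11.15, numpy 2.4.6, pandas 2.3.3 and matplotlib 3.10.9.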

Additional observations from a re-analysis of the deposited data

Results flagged for a closer look

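In CMP:MA9, normal CMP and normal ST-HSC, groups of 4 or 5 samples, some single values stood apart by Dixon's criterion. Chance meets this criterion in about 1 in 20 groups. The 10 values listed below are not all that met it, and Hbb-b1 in ST-HSC replicate 4, at 24164 FPKM (nearest 3781), is another. The number of gene and group sets examined is not given, so these values cannot be set against the number expected by chance. In CMP:MA9, replicate 3 was at 26 FPKM for Hdc (nearest other sample 3.29), 44 for Spp1 (7.6), 74.5 for Fli1 (57.2) and 114 for Arhgef1 (155), and replicate 4 was at 7.13 for Nkg7 (1.56). In normal CMP, replicate 5 was at 3.54 FPKM for 1700112E06Rik (8.73), 45.2 for Chchd10 (23.5) and 13.2 for Scand1 (8.09). In normal ST-HSC, replicate 5 was at 68.4 FPKM for Bmyc (50.7) and replicate 2 at 69.7 for Prdx1 (95.1).

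For 10 named genes the limma contrast between the steps from ST-HSC to STHSC:MA9 and from CMP to CMP:MA9 passed the call. More positive in the step from ST-HSC, on the log2 scale, were 1700112E06Rik by 2.22 (adjusted p = 0.00115), mt-Nd3 by 2.00 (1.86e-07), Gm4724 by 1.79 (0.0495), Gm14306 by 1.66 (0.0137), Gm14420 by 1.60 (0.0195) and Faf1 by 1.14 (0.0317). The value was -2.70 for Itgb3 (adjusted p = 0.0161), -2.04 for Dkkl1 (0.0444), -1.62 for Nceh1 (0.000389) and -1.55 for Dusp3 (0.0316). Itgb3 was the one of these not called between the leukaemias.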

How the results depend on the processing

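Between STHSC:MA9 and CMP:MA9, 45 genes were called, and 32 to 46 under another pseudocount, filter or scaling, with only the groups compared or with equal IDs counted once. With only the groups compared 36 were called, and 24 of these were among the 45. The count was 22 with the replicate block, 6 with the GC and length correction, 5 with both, 78 with no fold limit, 19 without genes that share sequence, and 18 to 202 with 1 sample left out (22 of the 45 kept with the block). Between normal ST-HSC and CMP the 321 calls were 517 with a pseudocount of 0.1, 483 with no filter, 2642 with no fold limit and 246 to 386 with 1 sample left out. For the difference of changes the 111 calls were 212 with no filter, 50 with equal sums without mitochondrial genes, 32 with only the groups compared, 51 with the replicate block, 72 with the block and the GC and length correction, 178 with no fold limit and 9 to 668 with 1 sample left out. For the 41 genes chosen by the naming rule, no log2 change between STHSC:MA9 and CMP:MA9 changed sign under these alternatives.

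Replicate numbers are shared between groups, and the labels do not say that they pair samples. Deviations of same-numbered samples correlated at -0.132 to 0.314 between STHSC:MA9 and CMP:MA9 and at -0.181 to 0.107 between ST-HSC and CMP. Between STHSC:MA9 and CMP:MA9, samples with different numbers correlated at -0.386 to 0.218. So few samples cannot decide whether equal numbers mark a pair. Of the 20 named calls, 11 were lost with only the groups compared, 12 with the block and 14 with the GC and length correction. Leaving a group of 3 with 2 samples assumes that these vary like the other groups. Without read totals, differences in low genes could not be set against counting error, and a value listed at 0 has no upper limit here. The cause of these dependences was not tested.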
